A study of Homo sapiens with 16 samples.

Results

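The cytosolic ribosomal protein genes were followed in the human lung adenocarcinoma lines NCI-H1975 and HCC827. Members were the genes annotated as protein-coding whose name is RPL or RPS followed by a digit, or RPLP0, RPLP1, RPLP2 or RPSA, without names that carry a K after the prefix (the ribosomal S6 kinases) and without RPS19BP1. Of 58735 genes listed, 90 qualified, 55 of the large and 35 of the small subunit. Of these, 77 encode the standard proteins of the ribosome (core members), 10 are paralogues (RPS27L, RPL22L1, RPL39L, RPL26L1, RPL36AL, RPL7L1, RPL3L, RPL10L, RPS4Y1 and RPS4Y2), and 3 are readthrough genes, whose transcripts run on from a ribosomal protein gene into its neighbour. RPS4Y1 and RPS4Y2 were counted as members and their levels are not given.

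RNA was sequenced in 12 libraries of NCI-H1975, in which EGFR carries an activating mutation and a second one that confers drug resistance, and in 2 libraries of parental HCC827, whose EGFR is activated by a deletion. NCI-H1975 received the chloroform fraction of dried Magnolia flower buds (Flos Magnoliae; called the fraction here), or magnolin, a lignan found in the same buds, or neither (control), with 4 libraries per group. The labels give the genotype of each line as wild type, name no further allele or agent, and state neither dose nor duration, either of which may differ between treatments. Nothing in the labels shows that replicates came from separate cultures, so a p-value here reflects the spread between libraries, which may be technical. Replicates 1 and 2 of each group were deposited in one table (set A), replicates 3 and 4 in another (set B) and HCC827 in the third, each normalized separately. The study asked which genes change when lung cancer cells resist EGFR kinase inhibitors and what acts against them.

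The human cytosolic ribosome joins a small subunit, which reads the codons of the mRNA, to a large subunit, which links the amino acids. Most ribosomal proteins are present as a single copy per ribosome, so cells make them in matched amounts. Many of their mRNAs begin with a C followed by a run of pyrimidines, the terminal oligopyrimidine (TOP) tract, through which their translation follows the growth-signalling kinase mTOR via the repressor LARP1. Growing tumour cells hold large amounts of these mRNAs, and when ribosome assembly fails, free RPL5 and RPL11 bind MDM2 and stabilize p53.

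Libraries held 15.96 to 17.04 M reads in set B, 18.4 to 21.3 M reads in set A and 15.9 to 16.4 M reads for HCC827, as rebuilt from the deposited values. All 6 epithelial markers (EPCAM, CDH1 and 4 keratins) reached 1 FPKM (reads per kb of gene, scaled to the library) in every library, whereas of 4 lung lineage markers only NKX2-1 did in NCI-H1975. Replicate 1 of set A stood apart in all 3 groups: the summed epithelial markers were 1313, 1111 and 1160 FPKM in its fraction, magnolin and control libraries, against 426, 393 and 581 FPKM in replicate 2. Summed leukocyte markers lay between 0.0358 and 3.74 FPKM and summed endothelial markers between 0.134 and 6.24 FPKM in NCI-H1975. In set B the endothelial sum was 0.943 and 0.832 FPKM with the fraction, 1.69 and 1.47 FPKM with magnolin and 6.24 and 4.29 FPKM in controls. The epithelial sum was 410 and 449 FPKM with the fraction, 445 and 440 FPKM with magnolin and 619 and 613 FPKM in controls of set B, and 2 of its 6 genes fell against control with either treatment. The sum of 6 mesenchymal or fibroblast markers was 210 FPKM in both fraction libraries, 189 and 201 FPKM with magnolin and 174 and 176 FPKM in controls of set B. Most of that sum was the marker VIM, at 201 and 199 FPKM with the fraction and 150 and 156 FPKM in controls. Of the 3 mesenchymal genes tested 1 rose and 2 fell with the fraction against control, and 0 passed with magnolin. The part of these marker lists in the results below was not tested.

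The start of a ribosomal protein gene often carries the TOP tract. Members called only against magnolin are left out of the windows below. The windows are shown for members that changed with the fraction against control in set B, in the test described further on, and for 3 pairs of core member and paralogue. Each holds 20 bases before and 20 bases from the RefSeq transcription start (GRCh38.p14), with the run of C and T from the first transcribed base in capitals, where that base is a C or T.
RPL12 (chr9:127451387-127451426, minus strand): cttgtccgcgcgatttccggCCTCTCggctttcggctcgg
RPL13A (chr19:49487588-49487627, plus strand): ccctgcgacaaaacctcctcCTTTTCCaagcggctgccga
RPL3 (chr22:39319604-39319643, minus strand): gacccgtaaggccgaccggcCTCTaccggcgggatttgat
RPS26 (chr12:56041898-56041937, plus strand): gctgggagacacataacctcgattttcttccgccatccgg
RPS27A (chr2:55232668-55232707, plus strand): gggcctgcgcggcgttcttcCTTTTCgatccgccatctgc
RPL36AL (chr14:49620607-49620646, minus strand): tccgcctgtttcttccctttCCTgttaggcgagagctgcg
RPL26L1 (chr5:172958709-172958748, plus strand): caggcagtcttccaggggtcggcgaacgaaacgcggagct
RPL26 (chr17:8383174-8383213, minus strand): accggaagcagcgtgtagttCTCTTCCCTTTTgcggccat
RPS27 (chr1:153990742-153990781, plus strand): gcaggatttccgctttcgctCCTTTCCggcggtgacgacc
RPS27L (chr15:63157458-63157497, minus strand): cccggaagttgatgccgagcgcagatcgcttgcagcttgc
RPL22 (chr1:6199576-6199615, minus strand): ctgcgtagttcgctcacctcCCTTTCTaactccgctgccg
RPL22L1 (chr3:170870176-170870215, minus strand): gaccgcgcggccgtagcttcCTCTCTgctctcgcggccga

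RefSeq gave a window for 70 of the 90 members. A C at the first base followed by further C or T to a run of at least 5 was found in 48 of these 70 members (68.6%), in 46 of 62 core members (74.2%) and in 1 of 6 paralogues, which was RPL22L1. The same tract stood at the start of 947 of 14896 protein-coding genes (6.36%) and of 8.70% of the mitochondrial ribosomal protein genes, shares well below that of the cytosolic genes, set side by side without a test. Genes with the tract include RPL26 with a run of 12 and RPS27 with a run of 7, whereas the paralogues RPL26L1 and RPS27L have no C or T at the annotated start. The letters CCGGAA, the core of the ETS site, on either strand, stood in 55.7% of members, 62.3% of mitochondrial ribosomal protein genes and 27.0% of protein-coding genes within 250 bases before to 50 after the start. AAGATGG, the core of the YY1 site, on either strand, stood in 12.9% of members, 34.8% of mitochondrial ribosomal protein genes and 8.02% of protein-coding genes, and matches to these 2 motifs may share bases. Where a gene had several annotated starts (RPL26L1 with 2 and RPS27A with 3), any start with the letters counted, and the window with the longest tract is printed. The tract was read at annotated starts alone, so a gene counted without one may carry it at a start not listed. Such matches are descriptions and not evidence of binding or of regulated translation.

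The members differed widely in level in untreated NCI-H1975 cells. Core members lay between 1.89 and 702 FPKM in the mean of the set B controls, with a median of 122 FPKM. RPS2, which lines the mRNA entry channel of the small subunit, was highest with 694 and 711 FPKM in control replicates 3 and 4 and 605 and 883 FPKM in replicates 1 and 2. Over all 4 controls RPS12, RPL7A, RPL41 and RPLP0 came next. RPS10, a small subunit protein that is ubiquitinated on stalled ribosomes, was lowest of the tested members, with 1.73 and 2.04 FPKM in control replicates 3 and 4. RPS27L, RPL36A and RPL17 were also low, at means of 3.71, 3.79 and 6.15 FPKM over the 4 controls.

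FPKM divides by the length of all annotated exons of a gene, which for core members was 1.94 to 49.0 times the coding length (median 5.95 times). RPS29, a zinc-binding small subunit protein, has 9845 exon bases for a coding sequence of 201 bases, and its mean of 8.87 FPKM in set B controls corresponded to 435 reads per kb of coding sequence on the same scale. Per kb of coding sequence RPL41, the shortest ribosomal protein, led with 5303, followed by the stalk protein RPLP1 with 2007 and RPS2 with 1928, and core members had a median of 788. On this scale core members at the low end included RPS10 with 8.998, RPL17 with 28.8, RPL36A with 35.1, RPS15A with 144, RPL26 with 179 and RPL22 with 189, and the next core member above RPL22 was RPL21 with 251. The 6 core members from RPS10 to RPL22 in this list share coding bases with another protein-coding gene on the same strand, at 54.6 to 100% of their coding bases. For RPS10, RPL17 and RPL36A that other gene is the readthrough gene RPS10-NUDT3, RPL17-C18orf32 or RPL36A-HNRNPH2, which had 0 to 0.0341 FPKM in the set B controls. How reads falling on 2 genes were counted is not given in the sources used here, so the levels of these 6 members are uncertain, and the part of the overlap in their order was not tested.

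**Figure D1:**
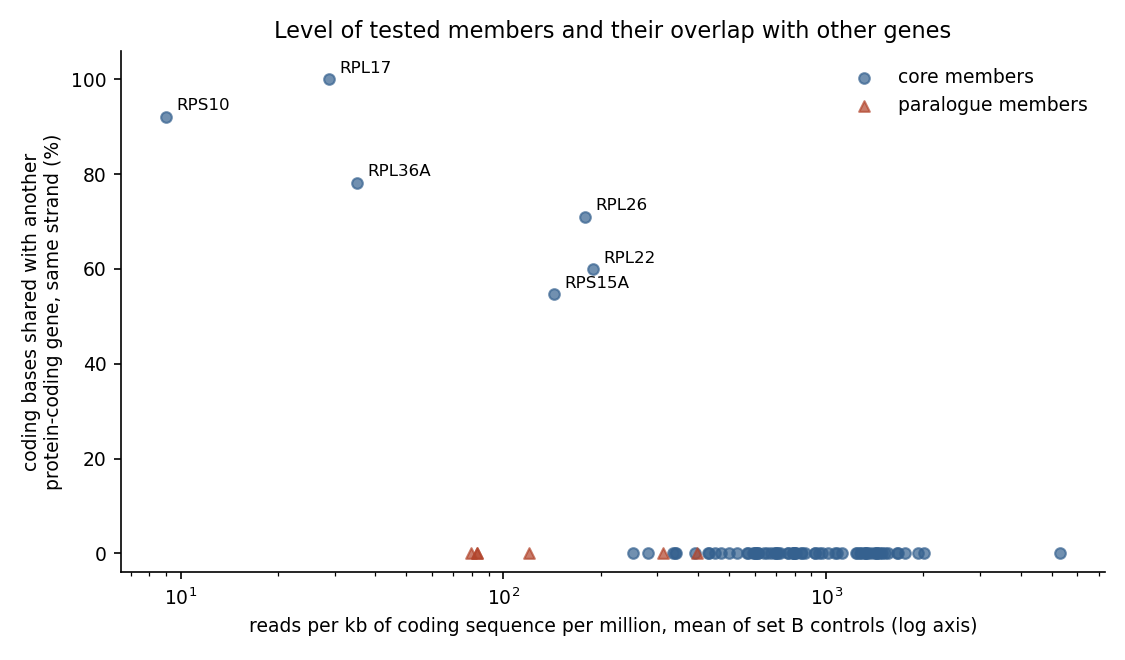
Level of tested members against the share of their coding bases that another protein-coding gene of the same strand also holds. The horizontal axis is a log axis of FPKM rescaled to the coding length (mean of the 2 set B controls), the vertical axis is in percent, circles are core members and triangles paralogues. The 6 named core members lie at 8.998 to 189, left of all core members that share no coding bases, and 1 tested member is not plotted.

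Ribosomal protein genes have many processed pseudogenes with near-identical sequence, and 1149 annotated pseudogenes were matched by name to 77 members. Of these, 92 reached 1 FPKM in a control of set B. For RPS28 72.2% of the reads of the member and its pseudogenes lay on the pseudogenes in set B controls, for RPL9 59.1%, for RPS10 41.3% and for RPL39 28.1%. The share was 14.2% for RPL7, 5.48% for RPL13A, 4.07% for RPS27A, 2.38% for RPL3, 1.21% for RPS26 and 0.690% for RPL12. For RPS28 and RPL9 more reads thus lay on the pseudogenes than on the member, and their levels are uncertain.

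As a group the members took between 4.21 and 5.81% of the summed FPKM in NCI-H1975. In set B the share was 4.31 and 4.96% with the fraction, 4.95 and 4.91% with magnolin and 4.53 and 4.74% in controls. The 2 magnolin libraries lay above both controls, and the 2 fraction libraries lay on either side of them. Of the FPKM of nuclear protein-coding genes alone the share was 6.65 and 7.25% with the fraction, 7.07 and 6.99% with magnolin and 6.37 and 6.65% in controls, so that fraction replicate 4 lay above both controls and replicate 3 beside the higher one. In set A the share of summed FPKM was 5.12 and 5.18% with the fraction, 5.05 and 4.95% with magnolin and 4.21 and 5.81% in controls. The 2 controls thus enclosed all treated libraries. Large subunit genes took 2.47 and 2.81% with the fraction, 2.81 and 2.81% with magnolin and 2.59 and 2.70% in controls of set B. Their ratio to the small subunit genes was 1.31 to 1.34 in all 6 libraries of set B, against 1.22 to 1.40 in set A and 1.62 to 1.63 in HCC827. With 2 libraries per group an exact permutation test cannot pass 0.05, and none was made on the shares. Reads on mitochondrially encoded genes made up 8.17 and 7.04% in the fraction libraries of set B, 6.40 and 6.38% in the magnolin libraries and 5.84 and 5.83% in the controls, and their part in the shares was not tested.

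**Figure D2:**
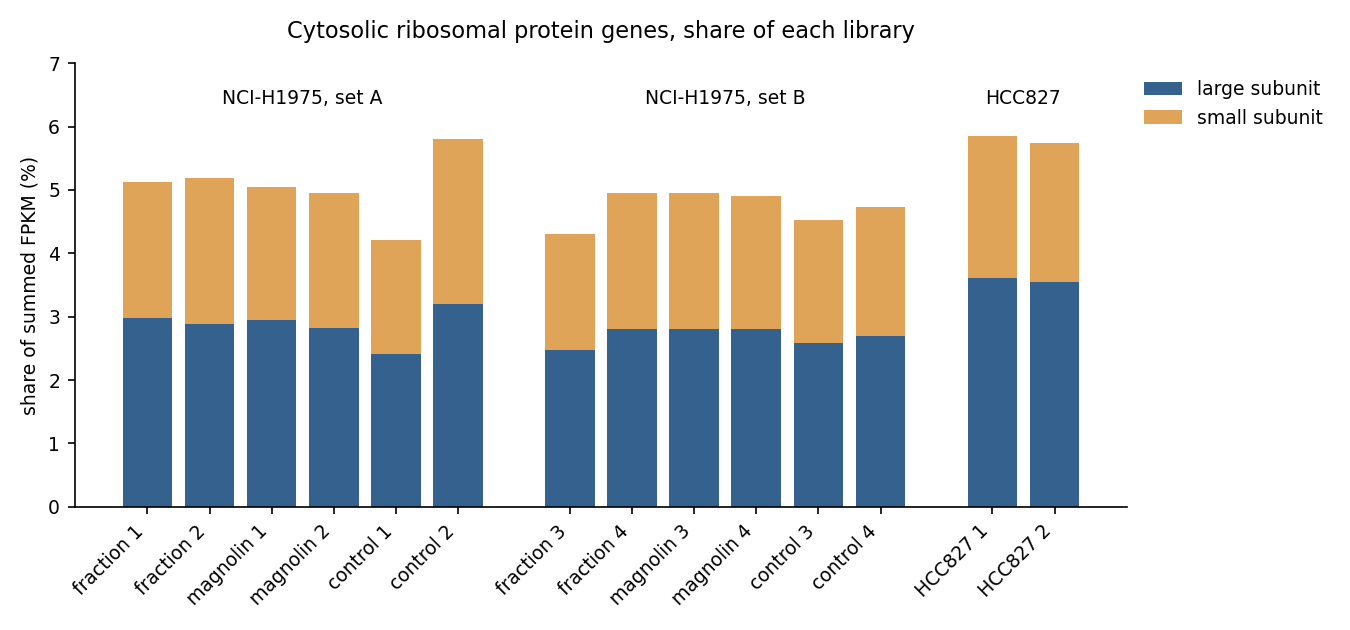
Share of the summed FPKM taken by cytosolic ribosomal protein genes in each library, in percent, with the large subunit in blue and the small subunit above it in orange. Control replicates 1 and 2 of set A are the lowest and the highest NCI-H1975 libraries, at 4.21 and 5.81%.

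The fraction changed single ribosomal protein genes in both directions in set B while the median of the group stayed near 0. Of 83 members that reached 1 FPKM in at least 2 libraries, 3 rose and 4 fell, beside 19.9% of all 14673 genes tested (limma on log2(FPKM + 1), Benjamini-Hochberg adjusted p under 0.05 over all genes). The background was 8.33% higher and 11.6% lower, so the share of members called lay below that of all genes, a difference that was not tested. The median log2 change was 0.00 for members and -0.01 for all genes, with 42 members positive and 41 negative. With 2 libraries per group the fit rests on few degrees of freedom, and FPKM gives parts of a library, so less mRNA of a gene per cell and fewer cells holding it cannot be told apart.

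The 3 genes that rose encode large subunit proteins. RPL12, which forms the base of the stalk that recruits elongation factors (ENSG00000197958, hg38 chromosome 9, 127447674 to 127451405), had 280 and 298 FPKM with the fraction and 205 and 225 FPKM in controls. Both fraction libraries lay above both controls, with a log2 change of 0.43 (SE 0.07, adjusted p = 0.0132). RPL13A, which after release from the ribosome silences inflammatory mRNAs as part of the GAIT complex (ENSG00000142541, chromosome 19, 49487554 to 49492308), had 430 and 464 FPKM with the fraction and 333 and 353 FPKM in controls. It rose by 0.38 on the log2 scale (SE 0.07, adjusted p = 0.0162). RPL3, which reaches toward the catalytic centre (ENSG00000100316, chromosome 22, 39312882 to 39320389), had 284 and 282 FPKM with the fraction and 237 and 244 FPKM in controls. Its log2 change was 0.23 (SE 0.06, adjusted p = 0.0416).

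The 4 genes that fell were RPS26, RPS27A and the paralogues RPL26L1 and RPL36AL. RPS26, which contacts the mRNA at the exit channel and is mutated in Diamond-Blackfan anaemia (ENSG00000197728, chromosome 12, 56041351 to 56044697), had 45.8 and 50.6 FPKM with the fraction and 65.5 and 78.8 FPKM in controls. Its log2 change was -0.57 (SE 0.11, adjusted p = 0.0189). RPL26L1, a paralogue of the large subunit gene RPL26 (ENSG00000037241, chromosome 5, 172958729 to 172969771), had 22.9 and 18.7 FPKM with the fraction and 29.7 and 32.4 FPKM in controls. It fell by 0.56 on the log2 scale (SE 0.12, adjusted p = 0.0287). RPS27A, which is made as a fusion with ubiquitin (ENSG00000143947, chromosome 2, 55231903 to 55235853), had 108 and 122 FPKM with the fraction and 139 and 151 FPKM in controls, a log2 change of -0.33 (SE 0.09, adjusted p = 0.0436). RPL36AL, a close paralogue of RPL36A whose product touches the tRNA in the exit site (ENSG00000165502, chromosome 14, 49618519 to 49620685), had 107 and 111 FPKM with the fraction and 126 and 141 FPKM in controls, a log2 change of -0.29 (SE 0.07, adjusted p = 0.0457). In each of the 4 genes both fraction libraries lay below both controls. Of the 7 genes, RPL12, RPL13A and RPS27A carry a TOP tract in the windows printed above. In the RPS26 window a run of C and T begins just past the annotated start and was not counted. Among tested members with such a tract 2 of 47 rose and 1 fell, and among those with a window and no tract 1 of 20 rose and 3 fell, at median log2 changes of 0.01 and -0.12.

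Of the 7 genes, RPL12, RPL13A and RPS26 also passed with the replicate number as a block (limma, adjusted p = 0.0203, 0.0297 and 0.0131), where 14.7% of all genes passed, and the adjusted p was 0.0544 for RPL26L1, 0.0556 for RPS27A, 0.0648 for RPL36AL and 0.0756 for RPL3. Counts moved with single libraries. Without fraction replicate 3, 23 members passed, beside 22.4% of all genes, and without fraction replicate 4, 15 passed, beside 20.5%. Without magnolin replicate 3 or 4, 3 passed, beside 13.7% of all genes each time. Without control replicate 3, 1 passed, beside 6.62%, and without control replicate 4 none did, beside 5.07%. With libraries rescaled to leave out mitochondrially encoded genes 6 members rose and 3 fell (18.3% of all genes passed), limma voom on rebuilt reads called 11 (28% of all genes), the 2 groups alone gave 3 (14.4%), and none passed when low genes were kept in the fit (4.75%). Among the members that did not pass, RPL28 had a log2 change of 0.32 (adjusted p = 0.0715) and RPL10, which helps form the tRNA sites of the large subunit, one of 0.25 (adjusted p = 0.0802). RPS2 had 737 and 1027 FPKM with the fraction and 694 and 711 FPKM in controls (adjusted p = 0.200), and RPL21 had 50.4 and 37.4 FPKM with the fraction and 48.6 and 58.7 FPKM in controls (adjusted p = 0.251). For 12 members both fraction libraries lay above both controls and for 15 both lay below, where 29.2 and 32.7% of all genes did.

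**Figure D3:**
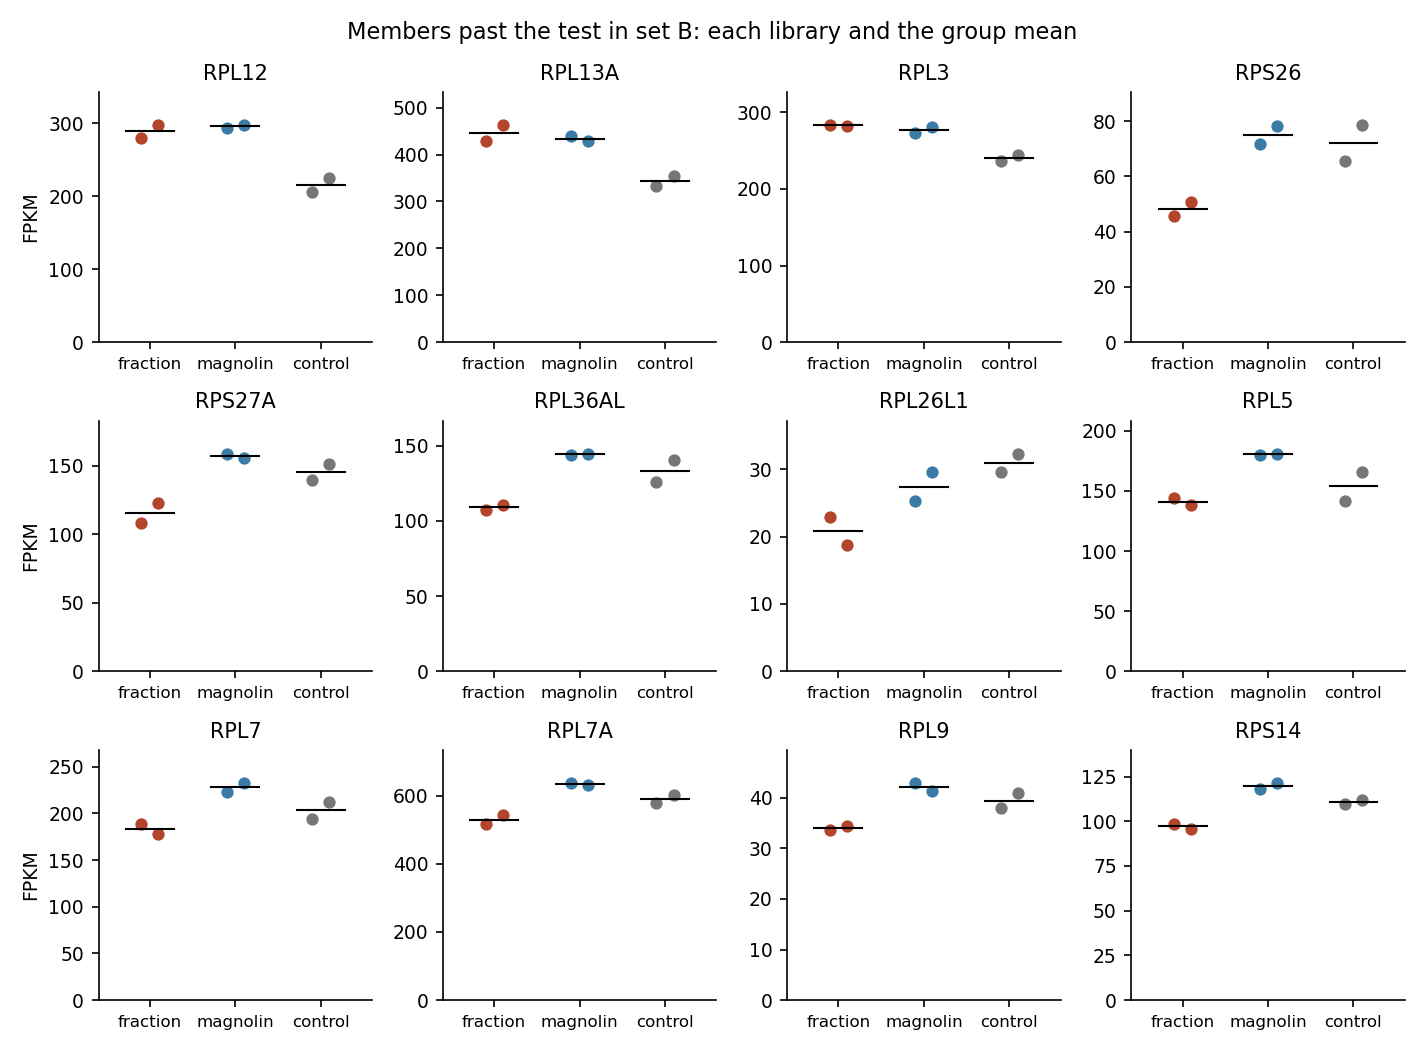
FPKM of the 12 members that passed the test in at least 1 comparison of set B, one panel per gene, with points for libraries, a bar for the mean of 2 and the axis starting at 0. RPL12, RPL13A and RPL3 are high with the fraction and with magnolin, and the other 9 have their lowest mean with the fraction.

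After magnolin no ribosomal protein gene passed the test in set B, while most lay slightly above control. By limma 0 of 83 members were called, where 0.627% of all genes were, and 16 of 83 members had an unadjusted p under 0.05, all of them positive, beside 14.2% of all genes in either direction and 7.22% with a positive change. Of the 83 members 71 had a positive log2 change, against 53.1% of all genes, and the median was 0.11 for members and 0.01 for all genes. Both magnolin libraries lay above both controls for 56 members and below for 5, where 28.4% of all genes lay above and 23.9% below. These members are expressed together and the counts describe 2 libraries per group, so no test is attached to them. The 2 controls of set B also differed, with replicate 4 above replicate 3 for 79 of 83 members, by a median of 0.09. In set A the median went the other way, at -0.10 for members beside -0.01 for all genes, and 51 of 83 members had a negative change. Both magnolin libraries of set A lay above both controls for 4 members and below for 9, where 12.7% of all genes lay above and 13.6% below. Leaving out control replicate 2 turned the sign of that members' median. In set B the median was 0.11 for the large and 0.12 for the small subunit, and 0.11 both for the 47 tested members with a TOP tract at the start and for the 20 with a window and no tract.

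RPL12 was again the member with the largest positive value, with 293 and 298 FPKM after magnolin and 205 and 225 FPKM in controls, a log2 change of 0.46 (SE 0.07, adjusted p = 0.0694). RPL4, which lines the peptide exit tunnel, had 263 and 277 FPKM after magnolin and 202 and 217 FPKM in controls (adjusted p = 0.101). RPL13A had 439 and 428 FPKM after magnolin and 333 and 353 FPKM in controls (adjusted p = 0.114). These 3 genes passed when limma voom was run on the rebuilt reads, where 3.93% of all genes passed, so their side of the threshold depended on the tool. RPS23, a decoding-centre protein, and RPL23A, at the tunnel exit, followed with log2 changes of 0.31 and 0.28 (adjusted p = 0.537 and 0.407). The most negative values belonged to RPL39L, RPL26L1, RPS21, RPS29 and RPL36, between -0.20 and -0.09, and their adjusted p was 0.594 to 0.881.

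Compared with magnolin, the fraction lowered 8 members and raised none in set B. The background was 14.9% of all genes called and 9.36% called lower, so 8 of 83 lower lay near it. The median log2 change was -0.13 for members and -0.02 for all genes, and 62 members were negative and 21 positive. Both fraction libraries lay below both magnolin libraries for 40 members and above for 2, where 32.8% of all genes lay below and 26.8% above. This comparison and those with control share libraries, so its values are given beside them and not as a separate line of evidence.

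RPS26 had 45.8 and 50.6 FPKM with the fraction and 71.8 and 78.4 FPKM with magnolin, a log2 change of -0.63 (SE 0.11, adjusted p = 0.020). RPS27A had 108 and 122 FPKM with the fraction and 159 and 156 FPKM with magnolin, a change of -0.45 (SE 0.09, adjusted p = 0.0250). RPL36AL had 107 and 111 FPKM with the fraction and 144 and 145 FPKM with magnolin, a change of -0.40 (SE 0.07, adjusted p = 0.0232). These 3 genes also passed with the replicate block (adjusted p = 0.0181, 0.0387 and 0.0398), where 8.93% of all genes passed, and the other 5 did not.

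RPL5, which carries the 5S rRNA and binds MDM2, had 144 and 138 FPKM with the fraction and 180 and 181 FPKM with magnolin, a change of -0.35 (SE 0.09, adjusted p = 0.0493). RPL7, RPL9, RPS14 and RPL7A changed by -0.31, -0.30, -0.30 and -0.26 (adjusted p = 0.0403, 0.0411, 0.0314 and 0.0432). RPS14, whose reduced dose contributes to the anaemia of the 5q- syndrome, had 98.8 and 96.0 FPKM with the fraction and 118 and 122 FPKM with magnolin. RPL21 had the second largest negative value, -0.52, and did not pass (adjusted p = 0.0790). The largest positive value belonged to RPS28, at 0.27 (adjusted p = 0.632), whose fraction libraries were 52.5 and 115 FPKM, and without fraction replicate 4 its change was -0.29. The count of members was 26 without fraction replicate 3, of which 10 were higher, beside 21.3% of all genes, and 15 without fraction replicate 4, beside 12.7%. It was 2 without control replicate 3 or 4 (6.65 and 6.52% of all genes) and 0 without magnolin replicate 3 or 4 (2.04 and 1.57%). It was 14 with limma voom (22.6% of all genes), 3 after rescaling without mitochondrially encoded genes (12.6%), 2 with the 2 groups alone (7.41%) and 0 with low genes kept (2.23%).

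**Figure D4:**
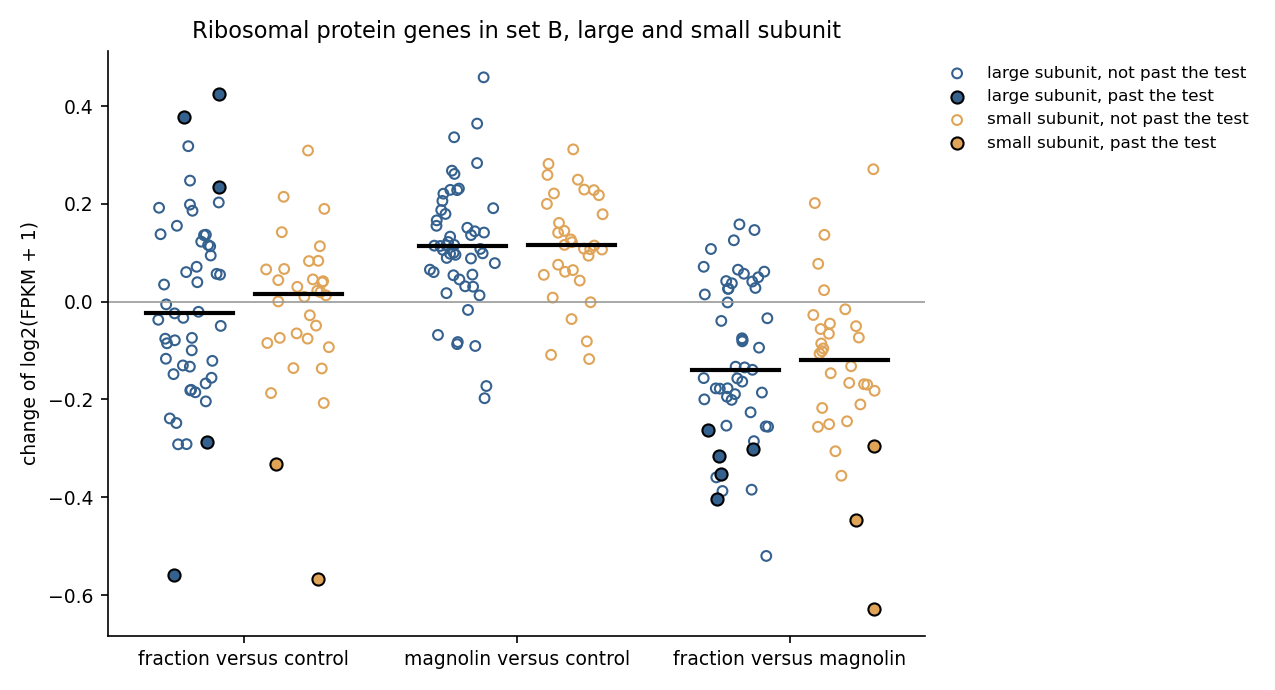
Change of log2(FPKM + 1) of the 83 tested members in the 3 comparisons of set B, the first group named minus the second, with the large subunit in blue, the small subunit in orange, filled points for members past the test and a black bar for the median. Magnolin versus control has medians of 0.11 and 0.12 and no filled point, and fraction versus magnolin has filled points below 0.

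Set A did not show these changes at the threshold. No member was called there in any of the 3 comparisons, where 0% of 13103 genes were called by limma without a block. Without the block no member had an unadjusted p under 0.05. All genes under it numbered 107, 255 and 93 (0.817, 1.95 and 0.71%) for fraction versus control, magnolin versus control and fraction versus magnolin. With the replicate block 0.183, 0.992 and 0.183% of genes were called in these 3 comparisons and again no member. At an unadjusted p under 0.05 the blocked fit had 1, 2 and 0 members, all lower, beside 801, 1946 and 852 genes. RPS26 had 193 and 120 FPKM with the fraction, 188 and 77.9 FPKM with magnolin and 181 and 151 FPKM in controls of set A, with overlapping groups. RPL12 had 260 and 291 FPKM with the fraction, 289 and 334 FPKM with magnolin and 198 and 292 FPKM in controls. The fraction libraries overlapped the controls and the magnolin libraries did so too, although the magnolin library was above the control of the same replicate number in both pairs. RPL36AL had 164 and 130 FPKM with the fraction, 186 and 132 FPKM with magnolin and 91.5 and 162 FPKM in controls.

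In a joint fit of both sets with a term for each replicate number, 0.156, 0 and 0% of 15428 genes were called for fraction versus control, magnolin versus control and fraction versus magnolin, and no member was among them. RPL12 had a log2 change of 0.31 (SE 0.10, adjusted p = 0.200) for fraction versus control and of 0.41 (SE 0.10, adjusted p = 0.321) for magnolin versus control. At an unadjusted p under 0.05 there were 3, 3 and 0 members, beside 17.7, 9.2 and 7.36% of all genes, and limma voom on the rebuilt reads called none. The difference of the effect between sets was itself tested and called for no gene, with 0 and 1 members at an unadjusted p under 0.05 for the fraction and for magnolin, beside 4.84 and 4.19% of all genes. With the replicate number as a block within each set, a fit added after seeing the data, 0.227 and 0% of all genes were called and again no member. At an unadjusted p under 0.05 there were then 0 and 4 members, beside 11.7 and 11.8% of all genes. For RPS26 the difference of the fraction effect, set B minus set A, was -0.44 (SE 0.53 without and 0.29 with the block, where the adjusted p was 0.611). For RPL4 the difference of the magnolin effect was 0.58 (SE 0.20 without and 0.17 with the block, where the adjusted p was 0.383). The median of that magnolin difference was 0.21 over members and 0.00 over all genes.

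Replicates of a group also differed in these genes. Control replicate 2 lay above control replicate 1 for 72 of 83 members and for 50.8% of all genes. The median difference was 0.55 on the log2 scale for members and 0.01 for all genes. The same difference had a median of 0.17 with the fraction and 0.04 with magnolin, and 37 members were higher and 11 lower in replicate 2 in all 3 groups. These make 57.8% of members with 1 sign throughout, against 63.6% of all genes, and the 37 higher ones make 44.6% of members, above the share of all genes higher throughout (4193 of 13103). In set B fraction replicate 4 lay above replicate 3 for 47.5% of all genes, with a median of -0.01. Among members it lay above for 62, with a median of 0.14 and a range of -0.61 to 1.12. RPS28, RPS21, RPL35 and RPL36, all with short coding sequences, were at the top of that range, and RPS23, RPL21 and RPL23A at its bottom. RPL35, beside the tunnel exit, had 152 and 259 FPKM in the 2 fraction libraries, against 187 and 196 FPKM in the 2 controls. Across the 83 genes that difference had a Spearman correlation of 0.44 with the GC content of the transcript and of -0.33 with coding length, whereas between the 2 magnolin libraries and between the 2 controls the correlation with GC content was -0.36 and -0.47. These correlations are across genes of the same libraries, which are not independent. Control replicate 4 lay above replicate 3 for 79 of 83 members, by a median of 0.09, and for 51.6% of all genes, by a median of 0.01.

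**Figure D5:**
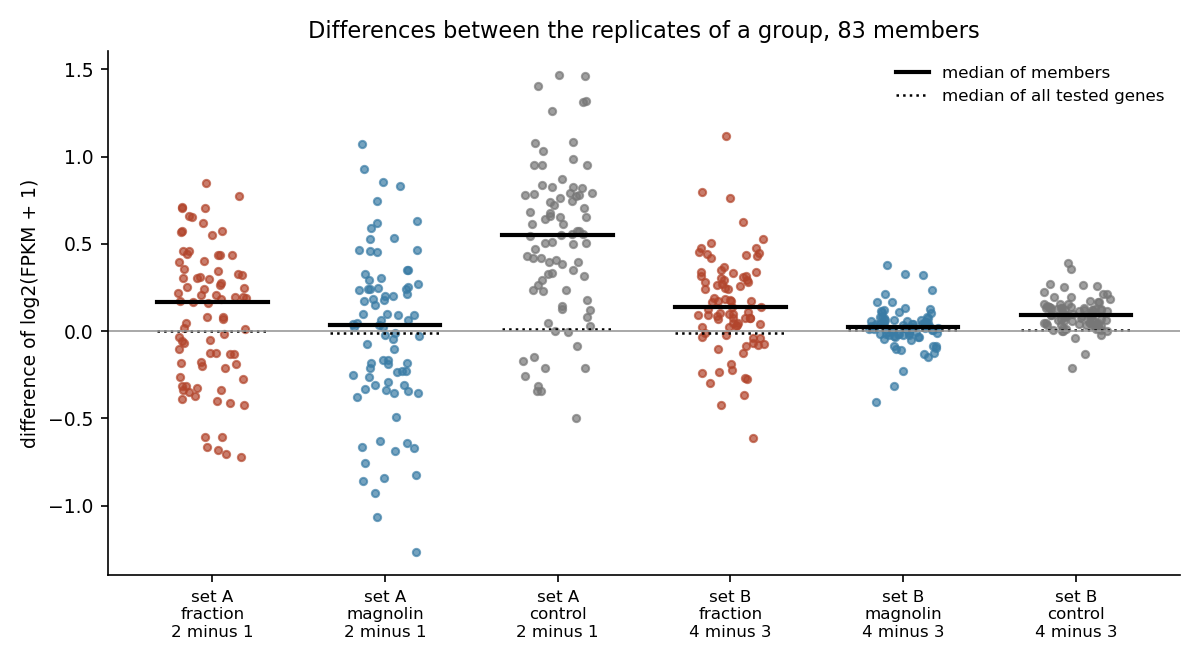
Difference of log2(FPKM + 1) between the 2 replicates of each group for the 83 tested members, one column per group and set, with the solid bar at the members' median and the dotted line at the median of all tested genes. The set A controls differ by a median of 0.55, and in set B the fraction libraries spread from -0.61 to 1.12.

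The paralogues RPS27L, RPL39L, RPL7L1, RPL3L and RPL10L had lower FPKM than their partners in every library. RPL36AL was above RPL36A in every library, and RPL26L1 and RPL22L1 lay above or below their partners depending on the library. RPL3L, a muscle form of RPL3, was at or under 0.351 FPKM, and RPL10L, a testis form of RPL10, was listed at 0 in all NCI-H1975 and HCC827 libraries except fraction replicate 4, with 0.0745 FPKM. The readthrough genes, RPL3L, RPL10L, RPS4Y1 and RPS4Y2 were the 7 members not tested. RPL36AL took 82.4 to 89.7% of the reads of RPL36A and RPL36AL in NCI-H1975, but RPL36A, like RPL26 and RPL22 below, is among the members that share coding bases with another gene, which makes the shares of these 3 pairs uncertain. RPL26L1 took 32.2 and 22.2% of the reads of its pair with the fraction, 28.5 and 32.2% with magnolin and 29.2 and 34.3% in controls of set B. In set A it took 49.1 and 49.5% with the fraction, 46.6 and 38.7% with magnolin and 59.7 and 52.6% in controls. RPL22L1, which is known to be regulated in balance with RPL22, took 26.3 and 20.3% with the fraction, 27.0 and 29.3% with magnolin and 24.8 and 32.2% in controls of set B. In set A it took 38.7 and 33.0% with the fraction, 47.1 and 30.9% with magnolin and 53.1 and 36.6% in controls. RPS27L, a p53-induced form of RPS27, took 10.3 and 7.86% with the fraction, 9.09 and 9.53% with magnolin and 8.5 and 8.12% in controls of set B. RPL39L took 4.35 and 5.81% with the fraction, 4.87 and 4.81% with magnolin and 5.78 and 5.26% in controls of set B. RPL7L1 took 33.0 to 34.9% in all 6 libraries of set B. In set A RPL39L took 5.48 to 17.0% and RPL7L1 took 17.2 to 30.9%. In HCC827 RPL7L1 took 6.59 and 6.01%. RPL7L1 is known as an assembly factor of the large subunit.

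Some members with functions of their own, among them RPL5, RPL13A and RPS27A, were called in set B and are given above. Others are given here. RPLP0, RPLP1 and RPLP2, which form the stalk, had log2 changes of -0.01, 0.11 and 0.12 for fraction versus control (-0.09 for RPLP2 without fraction replicate 4) and of 0.15, 0.19 and 0.11 for magnolin versus control in set B. RPSA, also known as the laminin receptor precursor, had 316 and 333 FPKM with the fraction, 365 and 386 FPKM with magnolin and 330 and 341 FPKM in controls. RPL11, the partner of RPL5 on MDM2, had 114 and 129 FPKM with the fraction, 137 and 138 FPKM with magnolin and 129 and 135 FPKM in controls. RPS6, the substrate of the S6 kinases, had 144 and 136 FPKM with the fraction, 143 and 151 FPKM with magnolin and 124 and 136 FPKM in controls. None of these 6 genes passed the test in a comparison of set B, with adjusted p of 0.0856 to 0.963.

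Other genes of translation also changed with the fraction in set B. No gene of the lists here and further below was called in set A or in the joint fit of both sets. There 0 and 0.156% of all genes were called for fraction versus control. Of 39 tested ribosome biogenesis factors 9 fell and none rose with the fraction against control, where 11.6% of all genes fell, and 30 did not pass. Their median was -0.18 (all genes -0.01), and 8 fell against magnolin, where 9.36% of all genes fell. These shares and those of the lists below were not tested against those of all genes. FBL, the methyltransferase of rRNA, had 18.5 and 20.6 FPKM with the fraction and 28.5 and 30.4 FPKM in controls (log2 change -0.57, adjusted p = 0.00713), and LTV1, a small subunit assembly factor, and NOP16 changed by -0.60 and -0.55 (adjusted p = 0.0210 and 0.0211). UTP20, of the small subunit processome, changed by -0.50 against magnolin (adjusted p = 0.0255). None of 11 RNA polymerase I genes passed. Of 77 mitochondrial ribosomal protein genes 13 fell and none rose against control, where 11.6% of all genes fell, with a median of -0.18. MRPL11 had 26.6 and 30.5 FPKM with the fraction and 45.5 and 49.7 FPKM in controls (log2 change -0.72, adjusted p = 0.00493).

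Of 17 tested TOP mRNAs that do not encode ribosomal proteins under these names, 3 rose and 1 fell with the fraction against control, where 8.33% of all genes rose and 11.6% fell. EEF2, the translocase of elongation, had 1544 and 1746 FPKM with the fraction and 1074 and 1093 FPKM in controls (log2 change 0.60, adjusted p = 0.00564), and EIF4B changed by 0.37 (adjusted p = 0.0253). HNRNPA1 fell by 0.53 on the log2 scale (adjusted p = 0.00577). Of 7 elongation factors 1 rose and 2 fell, EEF1A2 and EIF5A with changes of -0.56 and -0.45 (adjusted p = 0.0141 and 0.0304), and of 35 initiation factors 3 rose and 2 fell, among them EIF1 at 0.51 and EIF4G2 at -0.35 (adjusted p = 0.00670 and 0.0434). FAU, which encodes a further ribosomal protein as a ubiquitin-like fusion, did not pass, at -0.05. After magnolin all 17 of these TOP mRNAs had a positive change in set B and none passed, with a median of 0.18 beside 0.01 for all genes. In set A 8 of them were positive and 9 negative, with a median of -0.02 beside -0.01.

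Of 17 genes known to govern ribosomal protein expression 5 rose and 1 fell with the fraction against control, beside 8.33% of all genes higher and 11.6% lower, and 11 did not pass. SESN2, a leucine sensor that restrains mTOR complex 1, had 17.5 and 19.2 FPKM with the fraction, 5.63 and 5.51 FPKM with magnolin and 4.22 and 4.14 FPKM in controls (log2 change against control 1.90, adjusted p = 0.000348). DDIT4, which also restrains mTOR complex 1, had 55.7 and 67.1 FPKM with the fraction, 30.3 and 25.1 FPKM with magnolin and 16.5 and 14.1 FPKM in controls (1.93, adjusted p = 0.000981). EIF4EBP1, a repressor of initiation, changed by 0.78 against control (adjusted p = 0.0314), and MYC, which drives ribosome production, by 0.48 against magnolin (adjusted p = 0.0378). Of 9 sensors of ribosome quality and stress, ZNF598, a ligase for collided ribosomes, was the gene that passed, at 0.62 (adjusted p = 0.0304).

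In untreated HCC827 cells the members took 5.85 and 5.73% of the summed FPKM. The tables were normalized separately, so levels of both lines are set side by side without a test. Over 83 members the ranks of HCC827 and of the set B controls of NCI-H1975 had a Spearman correlation of 0.927, a description of genes that share annotation lengths. RPL7 was the highest member in HCC827 with 1023 and 1009 FPKM, and 25th in NCI-H1975 with 194 and 212 FPKM. RPS6 had 329 and 342 FPKM in HCC827 and 124 and 136 FPKM in NCI-H1975, and RPL5 had 382 and 371 FPKM in HCC827 and 142 and 166 FPKM in NCI-H1975. In the other direction RPS27L was at 0.838 and 0.829 FPKM in HCC827 and 3.12 and 3.53 FPKM in NCI-H1975, and RPL14 at 36.1 and 33.8 FPKM in HCC827 and 61.6 and 64.7 FPKM in NCI-H1975. RPL7, RPS6 and RPL5 also had higher values in both HCC827 libraries than in all 4 NCI-H1975 controls. The genes of this line were chosen after their values were seen.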

How the data were processed

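RNA-seq gene tables of 14 libraries were used. The authors deposited FPKM per gene, on build hg38 per the submitters' processing notes; per the labels' protocols RNA quality was checked and libraries were built with NEB reagents by a common or strand-specific method, and no source used here names an aligner or a counter. Gene lengths in the files equalled the exon unions of GENCODE 29 for all 58735 genes. FPKM times length gave whole reads (within 0.05, for genes of up to 2000 reads), used for depth and as an alternative. Of the HCC827 columns 2 match no label and were not used.

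Values were taken as log2(FPKM + 1), so changes of low genes are understated. Genes with at least 1 FPKM in at least 2 libraries were fitted within each set with limma 3.58.1 (trend, 3 groups sharing the spread) in R 4.3.3; every adjusted p in the text is limma's, adjusted by Benjamini-Hochberg over all genes fitted, with a threshold of 0.05. The fit was tested on simulated data. Precision of low genes is limited by counting at this depth. Members, lists, the naming rule and alternatives were chosen with earlier results of these data known. Named were paralogues and partners, stalk and MDM2-binding members, RPSA and RPS6, the 5 highest and lowest members, the 5 largest changes each way per comparison of set B, called members, and up to 3 called genes per list. Shared coding bases and the HCC827 examples were singled out after their values were seen. Values of 2 genes are not reported here by name.

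Groups share replicate numbers, and same-numbered libraries deviated together over all 4 replicates (correlation 0.263 to 0.871 in 12 pairs), so the numbers were taken as pairs and blocked fits are given where they change a call. The pairing comes from this check alone. It was clear within set A (0.742 to 0.781) and absent within set B (-0.0279 to 0.0299). The check over all 4 replicates may also take in the difference between tables, so it cannot show pairing within set B. No 2 libraries agreed within sampling noise.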

Additional observations from a re-analysis of the deposited data

Results flagged for a closer look

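The share of summed FPKM taken by large subunit genes was 2.95, 2.82, 2.81 and 2.81% in magnolin replicates 1 to 4. The gap between replicate 1 and the nearest library was 0.888 of the whole range, above the critical value of Dixon's test for 4 values. Such a gap arises by chance in about 1 in 20 groups, and replicates 1 and 2 come from another table than 3 and 4. The large and small subunit shares of all 3 groups were checked in this way, and no other was flagged. For the small subunit share of the same magnolin libraries the value was 0.134. Replicate 1 of set A also stood apart in the epithelial markers of all 3 groups, and its part in this value was not tested.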

How the results depend on the processing

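In set A, in the joint fits and for the difference between sets, the count of ribosomal protein genes called was 0 under every alternative run. In set B none of the 15 called changes of members turned its sign under the alternatives run. This follows in part from their selection, since leaving out 1 library cannot turn a change where the libraries of 2 groups do not overlap. Of the uncalled changes 42 of 76 for fraction versus control, 38 of 75 for fraction versus magnolin and 17 of 83 for magnolin versus control turned under at least 1 alternative, among them RPS28 and RPLP2. Counts moved as well. For fraction versus control the count of 7 became 3 with the replicate block, 0 without a filter on low genes, 11 with limma voom on rebuilt reads, 3 with only the 2 groups compared, and 0 to 23 leaving out 1 library. For fraction versus magnolin the count of 8 became 3 with the replicate block, 0 without the filter, 3 after rescaling without mitochondrial genes, 14 with voom, 2 with only the 2 groups compared, and 0 to 26 leaving out 1 library. For magnolin versus control the count of 0 became 3 with voom, where 3.93% of all genes passed. It became 1 of 83 members with only the 2 groups compared, where 1.21% of all genes passed. Leaving out a library leaves 1 in its group, whose spread is then taken from the other groups. The cause of these moves was not tested, except that dropping the filter adds low genes to the fit. Over all counts, 86 alternatives kept within 1.5 times of the reported value and 25 did not. Outside set B the block changed no call of a member. Within set A, leaving out control replicate 2 gave a members' median of 0.25 in place of -0.03 for fraction versus control and of 0.23 in place of -0.10 for magnolin versus control, and leaving out control replicate 1 gave -0.27 for fraction versus control and -0.32 for magnolin versus control. The mean share of summed FPKM moved under both alternatives in every group: over nuclear protein-coding genes it was 6.95, 7.03 and 6.51% in set B (fraction, magnolin, control) and 7.62, 7.59 and 7.61% in set A, and with pseudogenes added 6.25, 6.58 and 6.23% in set B and 6.80, 6.56 and 6.66% in set A.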
